A study of Mus musculus with 16 samples.

Results

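The growth hormone receptor, its signal transducer Stat5b and 8 genes controlled by this pathway were followed in mouse liver. The 10 genes were Ghr, Stat5b, Igf1, Igfals, Socs2, Cish, Bcl6, Hsd3b5, Elovl3 and Mup1. They were picked by symbol from 24970 genes of a transcript count table, with the row of the highest mean count standing for each gene, and all 10 were among the 12913 genes that passed the filter on low counts. The 16 livers formed 4 groups of 4: PXR-CAR-CYP3A4/3A7 humanized mice with TCPOBOP, the same humanized line with vehicle, C57BL/6 Ntac wild-type mice with TCPOBOP, and such wild-type mice with vehicle. TCPOBOP strongly activates mouse CAR, the constitutive androstane receptor, and was given at 3 mg/kg in 2 administrations 24 h apart, and livers were taken at 48 h. Vehicle animals received corn oil with 2% DMSO. Sex, age, feeding and time of day of the mice, and the background of the humanized line, are not in the labels.

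Growth hormone from the pituitary binds its receptor on hepatocytes, and the kinase JAK2 then phosphorylates STAT5B, which enters the nucleus and binds DNA. STAT5B switches on Igf1 and Igfals, which supply the circulating growth factor and its carrier, and Socs2 and Cish, which damp the signal. It represses Bcl6, itself a repressor. In male rodents growth hormone arrives in pulses and in females more evenly, and this difference sets the sex-biased expression of many liver genes, with Hsd3b5, Elovl3 and the Mup genes on the male side.

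In humanized liver, TCPOBOP raised 2 of the 10 genes, Hsd3b5 and Mup1, and lowered none, where 1.32% of all genes tested rose and 1.19% fell. In wild-type liver it lowered 6 of the 10, Ghr, Stat5b, Igf1, Igfals, Socs2 and Hsd3b5, and raised none, where 4.99% of all genes fell and 8.1% rose. At an unadjusted p under 0.05 the counts were 2 in humanized and 7 in wild-type liver. Of all 12913 genes tested, 2310 in humanized and 3239 in wild-type liver were under it. The 2 of 10 in humanized liver thus lie near the share of all genes. The median log2 change of the 10 genes was 0.20 in humanized and -1.06 in wild-type liver, against 0.02 and -0.02 for all genes tested. The difference between the effects in the 2 strains, the interaction, passed for Ghr, Stat5b, Igfals, Hsd3b5 and Mup1, each with the higher effect in humanized liver, while 3.48% of all genes were higher and 3.98% lower in it. Cish, Bcl6 and Elovl3 passed in no comparison. A call here is an adjusted p under 0.05 in edgeR's quasi-likelihood test over all genes tested.

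Between the strains the members split by treatment. Under TCPOBOP, 6 were higher in humanized than in wild-type liver (Ghr, Stat5b, Igf1, Igfals, Socs2 and Hsd3b5) and none lower, against 11.8% of all genes higher and 12.8% lower. Under vehicle, 2 were lower in humanized liver, Hsd3b5 and Mup1, and none higher, against 8.95% of all genes lower and 7.11% higher. The 4 comparisons between groups share libraries in pairs, so a low or high group enters 2 of them. The counts of gene lists and markers below stand against the shares of all genes given above for the same comparison. A count near its share is no result about the list. How many of all genes tested had groups that did not overlap was not counted. Overlap, or the lack of it, is therefore given below only as a description of the levels.

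**Figure D1:**
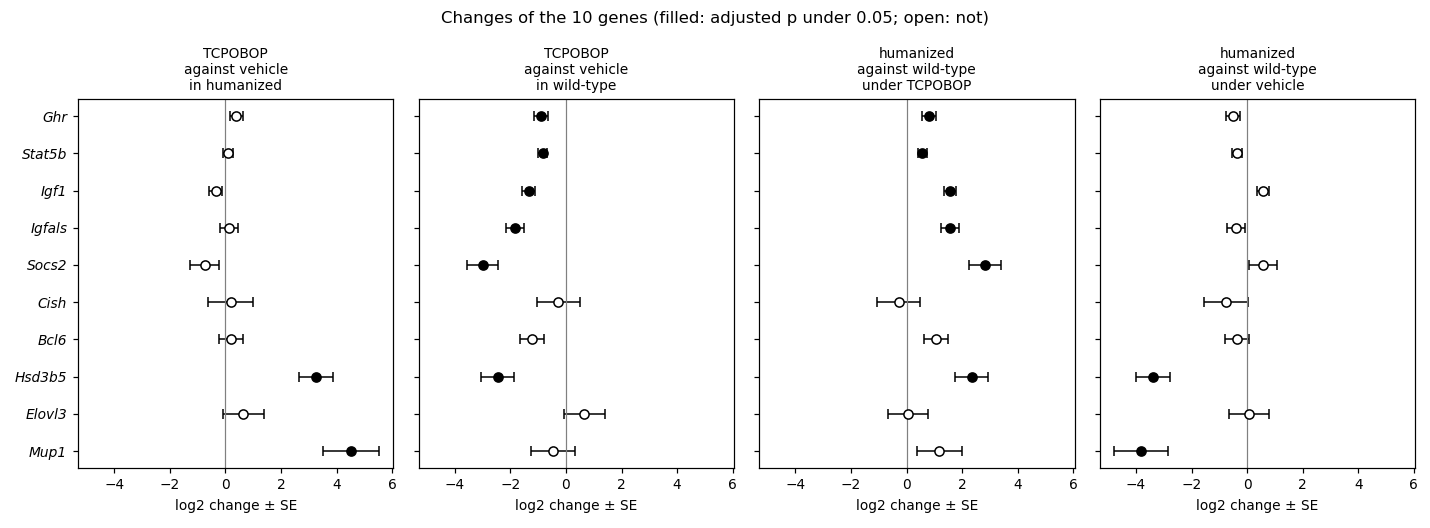
The log2 change (horizontal axis, ± SE) of each of the 10 genes is drawn for TCPOBOP against vehicle in each strain and for humanized against wild-type liver under each treatment. Filled points passed an adjusted p of 0.05 and open points did not. In wild-type liver the 6 filled points lie between -2.99 and -0.84, and in humanized liver the 2 filled points are Hsd3b5 at 3.26 and Mup1 at 4.53.

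The libraries were uneven in ways that touch these genes. The wild-type TCPOBOP libraries held 30228724 to 37998473 counts over all rows and the other 12 held 11827994 to 19483951. Wild-type vehicle replicate 2 correlated with the other libraries of its group at 0.911 to 0.938, where those correlated with each other at 0.969 to 0.985. Humanized TCPOBOP replicates 1 and 2 correlated with replicates 3 and 4 at 0.913 to 0.956, against 0.960 and 0.981 within these pairs. The mouse CAR gene Nr1i3 averaged 3.45 and 2.20 CPM (counts scaled to a common library size) in humanized TCPOBOP and humanized vehicle livers, against 52.3 and 100.3 CPM in wild-type TCPOBOP and wild-type vehicle livers, so every library matched its strain label in this gene. All 16 libraries held the Y-linked transcript Ddx3y at 19.4 to 99.7 CPM, lowest in wild-type vehicle replicate 2, and the highest Xist value was 0.622 CPM.

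Markers of other features of the liver moved with some groups. The summed level of 10 hepatocyte markers was 33050 to 48560 CPM in wild-type TCPOBOP and 69660 to 102000 CPM in wild-type vehicle livers, and 2 of the 10 fell, Alb and, in 19 of 28 alternatives, Ttr. All 6 proliferation markers rose in wild-type liver, from Birc5 at 2.82 to Rrm2 at 4.02 on the log2 scale, and none passed in humanized liver, where 1 had an unadjusted p under 0.05. Of 12 macrophage markers, 8 were lower in humanized than in wild-type liver under vehicle, with summed levels of 320.5 to 579.1 against 626.1 to 1361 CPM. Markers of sinusoidal endothelial cells (4 of 10), stellate cells (3 of 10) and erythroid cells (4 of 5) were also lower there, and none of these lists had a higher gene. Under TCPOBOP 4 of 10 endothelial and 4 of 10 stellate markers were lower in humanized than in wild-type liver, with summed endothelial levels of 162.9 to 446.3 against 461.8 to 612.0 CPM. Their part in the results below was not tested, and in whole liver a smaller share of a cell type and less RNA per cell cannot be told apart.

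STAT5 binds DNA at sites with the core letters TTCNNNGAA, which read the same on both strands. Windows of 300 bases around annotated start sites, from 250 before to 50 after, were taken from RefSeq on GRCm38.p6, and 8.30% of its 32851 windows held this motif at least 1 time. The 7 members with a window had 12 windows, and a gene with several windows has more chances than the share per window gives. Of these 7 members, 3 held the motif: Cish, Bcl6 and Igfals. Their windows are shown because these are the members with the motif. Cish lies at chr9:107296409-107296708 on the plus strand, and its 2 matches start 0 and 11 bases past the annotated start, where 0.457% of all windows held 2 or more. Bcl6 is shown at chr16:23981234-23981533 on the minus strand, where 3 matches start 168, 122 and 88 bases before the second of its annotated starts, and 0.033% of all windows held 3 or more. Igfals is shown at chr17:24877981-24878280 on the plus strand, with 1 match that starts 58 bases before an annotated start. Capitals mark the motif.
Cish: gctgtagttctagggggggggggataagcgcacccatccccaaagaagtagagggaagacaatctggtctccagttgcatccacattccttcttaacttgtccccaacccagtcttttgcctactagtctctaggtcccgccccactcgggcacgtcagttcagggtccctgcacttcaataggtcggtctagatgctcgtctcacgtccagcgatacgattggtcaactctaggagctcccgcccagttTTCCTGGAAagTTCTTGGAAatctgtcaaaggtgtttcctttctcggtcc
Bcl6: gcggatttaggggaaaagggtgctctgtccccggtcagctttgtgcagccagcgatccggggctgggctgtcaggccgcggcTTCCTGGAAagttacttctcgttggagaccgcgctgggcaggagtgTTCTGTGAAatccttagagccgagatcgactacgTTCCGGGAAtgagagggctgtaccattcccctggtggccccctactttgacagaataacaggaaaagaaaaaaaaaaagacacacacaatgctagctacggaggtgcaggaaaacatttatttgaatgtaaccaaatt
Igfals: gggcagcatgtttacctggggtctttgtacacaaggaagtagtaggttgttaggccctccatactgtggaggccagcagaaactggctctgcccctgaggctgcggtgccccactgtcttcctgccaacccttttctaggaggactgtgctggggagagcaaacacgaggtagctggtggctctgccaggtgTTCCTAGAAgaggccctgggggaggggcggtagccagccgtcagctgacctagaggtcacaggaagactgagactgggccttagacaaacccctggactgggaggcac
The other windows of Bcl6 and Igfals held 1 match in 2 cases and none in 1. The letters are a description of these windows and were not tied to binding here. The windows of Ghr, Stat5b, Igf1 and Hsd3b5 held no such letters.

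**Figure D2:**
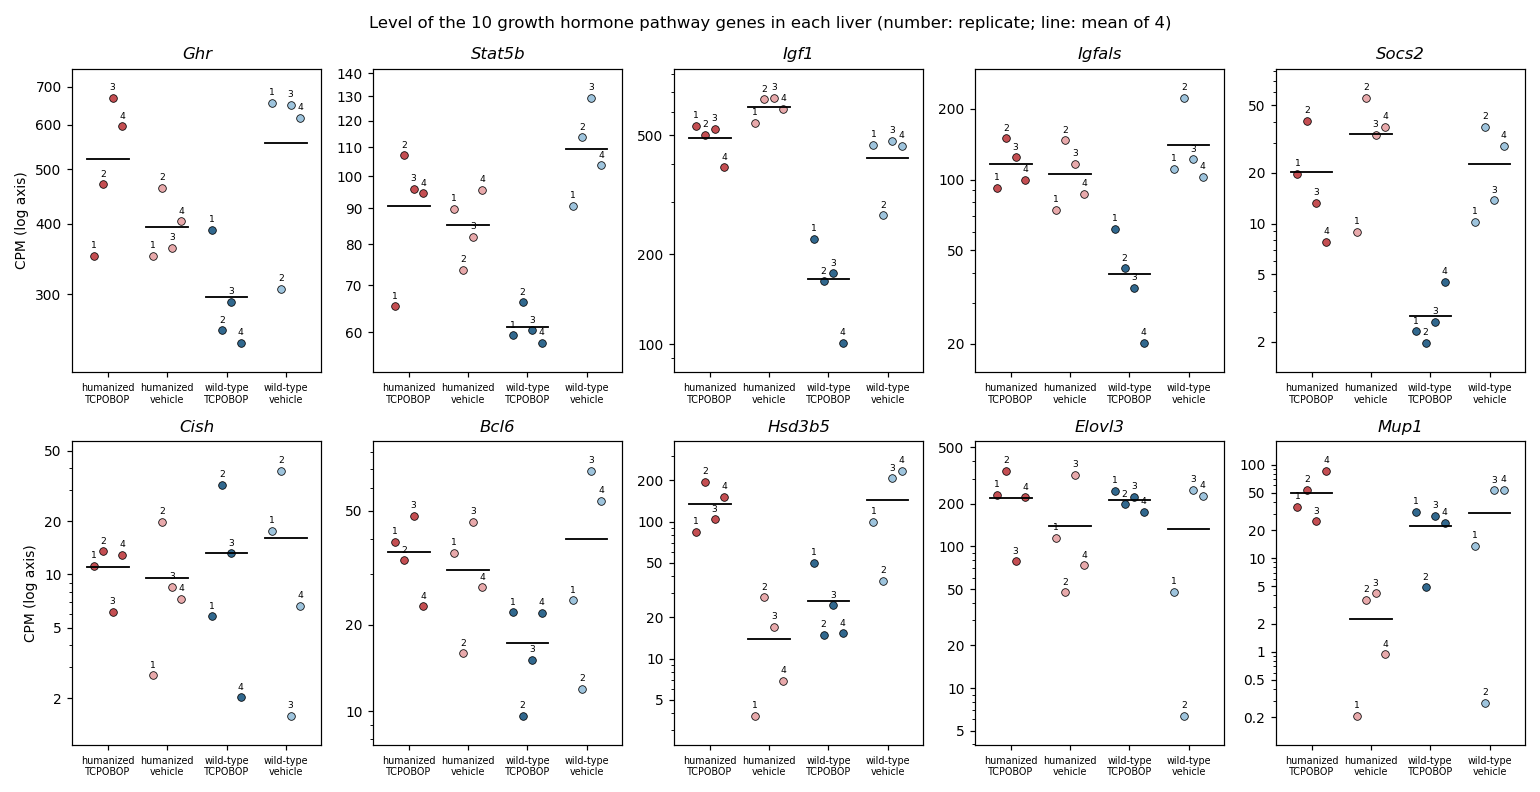
CPM on a log axis is plotted for each of the 10 genes, with 1 point per library labelled by its replicate number and a line at the mean of 4, for humanized TCPOBOP, humanized vehicle, wild-type TCPOBOP and wild-type vehicle livers. Igf1, Igfals, Socs2 and Stat5b lie below every wild-type vehicle library in all 4 wild-type TCPOBOP livers. The share of all genes tested that lie apart in this way was not counted. Mup1 and Hsd3b5 lie lowest on average in humanized vehicle livers.

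Ghr, the receptor itself (NM_010284; mm10 chromosome 15, 3317755 to 3583352), fell in wild-type liver under TCPOBOP. It had 351, 470.1, 669 and 596 CPM in humanized TCPOBOP livers, against 351, 464, 362.5 and 404.5 CPM in humanized vehicle livers. It had 390.5, 259, 291 and 246 CPM in wild-type TCPOBOP livers, against 656, 307, 650.5 and 616 CPM in wild-type vehicle livers. Of the 4 wild-type TCPOBOP livers, 3 lay below every vehicle liver, and the groups overlapped only through replicate 2 of wild-type vehicle. The log2 change was 0.40 ± 0.25 in humanized (adjusted p = 0.427) and -0.91 ± 0.25 in wild-type liver (adjusted p = 0.0197), and the interaction was 1.31 ± 0.35 (adjusted p = 0.0285). Under TCPOBOP, Ghr was 1.76-fold higher in humanized than in wild-type liver (adjusted p = 0.0239).

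The calls on Ghr were near the threshold. When 1 wild-type TCPOBOP liver was left out, the adjusted p in wild-type liver became 0.0592 (replicate 2), 0.0590 (replicate 3) or 0.0776 (replicate 4). Leaving out a wild-type vehicle liver made it 0.0568 (replicate 1), 0.00146 (replicate 2) or 0.0621 (replicate 3), and library totals alone made it 0.0534. The interaction missed the threshold in 14 of 27 alternatives, among them 11 of the 16 that left out 1 library (adjusted p up to 0.0711), and it was 1.53 without wild-type vehicle replicate 2 (adjusted p = 0.00247). Between humanized and wild-type liver under TCPOBOP the adjusted p was 0.0625 without humanized TCPOBOP replicate 3 and became 0.0644, 0.0604 or 0.0785 when wild-type TCPOBOP replicate 2, 3 or 4 was left out. It was 0.0858 with library totals alone and 0.193 with both humanized TCPOBOP replicates 3 and 4 left out, where the difference was 0.47. Under vehicle the strain difference of -0.50 did not pass (adjusted p = 0.163), but it was -0.70 with wild-type vehicle replicate 2 left out (adjusted p = 0.0336).

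The table also held 2 further Ghr transcripts. The counts of NM_001048178 were 0.562 of the main row in wild-type TCPOBOP replicate 2 and 0.550 in wild-type vehicle replicate 2. In the other 14 libraries this ratio was 0.355 to 0.451. The replicates numbered 2 of both wild-type groups thus stood apart from the rest in the make-up of the Ghr rows as well as in Cish, described below.

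Stat5b, the main growth hormone responsive STAT of liver (NM_001113563; chromosome 11, 100780731 to 100859004), showed a smaller and tighter fall. Its levels were 65.3, 107, 95.9 and 94.6 CPM in humanized TCPOBOP livers, against 89.8, 73.6, 82.0 and 95.7 CPM in humanized vehicle livers. In wild-type TCPOBOP livers they were 59.4, 66.2, 60.4 and 57.9 CPM, against 90.7, 114, 129 and 104 CPM in wild-type vehicle livers. The wild-type groups did not overlap, and the wild-type TCPOBOP group had the smallest spread of the 4 groups, with an SD of 3.61 CPM. The log2 change was 0.09 ± 0.17 in humanized (adjusted p = 0.836) and -0.84 ± 0.17 in wild-type liver (adjusted p = 0.00189, called in 28 of 28 alternatives), with an interaction of 0.93 ± 0.23 (adjusted p = 0.0198). That interaction had an adjusted p of 0.0511 without wild-type vehicle replicate 3, 0.0513 without wild-type TCPOBOP replicate 4, 0.0522 without both humanized TCPOBOP replicates 3 and 4, and 0.103 with library totals alone. Under TCPOBOP it was 1.49-fold higher in humanized than in wild-type liver (adjusted p = 0.0176), with an adjusted p of 0.0590 without humanized TCPOBOP replicate 2, 0.0573 without wild-type TCPOBOP replicate 4, 0.0556 without both humanized TCPOBOP replicates 3 and 4, and 0.130 with library totals alone.

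Of the 13 genes listed for the receptor and JAK-STAT signalling, 3 fell and 1 rose in wild-type liver, with a median log2 change of -0.27. Beside Ghr and Stat5b, the insulin receptor substrates moved in opposite directions: Irs2 fell by 1.96 (adjusted p = 0.0120, and 0.0520 without wild-type TCPOBOP replicate 4) and Irs1 rose by 0.82 (adjusted p = 0.0115). Jak2 was at 13.7 to 18.7 CPM in wild-type TCPOBOP and 9.71 to 22.3 CPM in wild-type vehicle livers, and did not pass. None of the 13 passed in humanized liver, with a median of 0.06 and 3 at an unadjusted p under 0.05.

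Igf1, the growth factor that mediates much of the body's response to growth hormone (NM_010512; chromosome 10, 87858265 to 87937047), fell in every wild-type liver given TCPOBOP. It had 536, 502.5, 525 and 391 CPM in humanized TCPOBOP livers, against 550.4, 659.9, 666 and 613 CPM in humanized vehicle livers. It had 225.5, 163, 173 and 101 CPM in wild-type TCPOBOP livers, against 465, 270.0, 479 and 459.8 CPM in wild-type vehicle livers. The order of the group means was humanized vehicle, humanized TCPOBOP, wild-type vehicle and wild-type TCPOBOP, and only the middle pair overlapped. In wild-type liver Igf1 fell 2.53-fold, a log2 change of -1.34 ± 0.23 (adjusted p = 0.000549, called in all 28 alternatives). In humanized liver the groups did not overlap either, but the change of -0.35 ± 0.23 did not pass (adjusted p = 0.448).

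The interaction of Igf1, 0.99 ± 0.32, also missed the threshold (adjusted p = 0.0690). It passed in 4 of 27 alternatives, with an adjusted p of 0.0120 without wild-type vehicle replicate 2, 0.0335 without wild-type TCPOBOP replicate 1, 0.0496 with every library thinned to the smallest total and 0.0194 in DESeq2. Under TCPOBOP Igf1 was 2.95-fold higher in humanized than in wild-type liver (adjusted p = 0.000105). Under vehicle the strains did not overlap, and the log2 difference of 0.57 ± 0.23 had an adjusted p of 0.0862.

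Igfals, the subunit that keeps IGF1 in a long-lived circulating complex (NM_008340; chromosome 17, 24877844 to 24882011), followed Igf1 in wild-type liver. Its levels were 92.1, 149.7, 124.5 and 99.8 CPM in humanized TCPOBOP livers, against 74.2, 147, 117 and 87.0 CPM in humanized vehicle livers. They were 61.8, 42.0, 34.6 and 20.2 CPM in wild-type TCPOBOP livers, against 111, 223, 122 and 103 CPM in wild-type vehicle livers. The humanized groups overlapped and the wild-type groups did not overlap. The change was 0.13 ± 0.31 in humanized (adjusted p = 0.875) and -1.82 ± 0.32 in wild-type liver (adjusted p = 0.000738). The interaction of 1.95 ± 0.44 passed (adjusted p = 0.0115), as did the difference between the strains under TCPOBOP, 1.56 ± 0.32 (adjusted p = 0.00195). All 3 calls held in every alternative. Leaving out wild-type vehicle replicate 2, the highest library, gave the wild-type fall an adjusted p of 0.00187.

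Among 12 tested genes of the IGF axis, Igf1 and Igfals were the 2 that fell in wild-type liver, none rose, and the median was -0.60. In humanized liver Igfbp3, the main IGF carrier of serum, was the 1 gene that fell: it had 6.79, 5.86, 11.5 and 14.7 CPM under TCPOBOP, against 22.0, 25.8, 29.3 and 28.2 CPM under vehicle (-1.43 ± 0.27, adjusted p = 0.0111). Igfbp3 in liver is made mainly by non-parenchymal cells. Humanized TCPOBOP replicates 1 and 2 were also the lowest in the summed level of 10 sinusoidal endothelial markers, at 163 and 184 CPM, against 446 and 416 CPM in replicates 3 and 4 and 290.5 to 378 CPM in humanized vehicle livers, and their part in the fall of Igfbp3 was not tested. Under TCPOBOP 4 genes of the axis, Igf1, Igfals, Igfbp4 and Insr, were higher in humanized than in wild-type liver, and Igfbp6 and Igfbp7 were lower. The calls on Insr (12 of 28 alternatives) and Igfbp6 (18 of 26) held least often, those on Igfbp7 in 25 and Igfbp4 in 27 of 28.

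Socs2, the feedback inhibitor whose loss in mice causes overgrowth (NM_007706; chromosome 10, 95383903 to 95417321), showed the steepest fall of the 10 genes in wild-type liver. It had 19.6, 40.6, 13.2 and 7.82 CPM in humanized TCPOBOP livers, against 8.91, 55.4, 33.5 and 37.4 CPM in humanized vehicle livers. It had 2.30, 1.97, 2.62 and 4.53 CPM in wild-type TCPOBOP livers, against 10.3, 37.5, 13.7 and 28.9 CPM in wild-type vehicle livers. The highest wild-type TCPOBOP value was below the lowest of each other group. Counts of 42 to 94 lay behind the wild-type TCPOBOP values. The humanized change was -0.74 ± 0.52 (adjusted p = 0.492), and the wild-type fall was 7.93-fold (-2.99 ± 0.56, adjusted p = 0.00137).

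Under TCPOBOP Socs2 was 7.06-fold higher in humanized than in wild-type liver (2.82 ± 0.57, adjusted p = 0.00165), and the log2 difference was 1.90 when humanized TCPOBOP replicates 1 and 2 were left out (adjusted p = 0.0411). The interaction, 2.25 ± 0.75, did not pass (adjusted p = 0.0797). It passed in DESeq2 (adjusted p = 0.0246), without humanized TCPOBOP replicate 4 (adjusted p = 0.0473) and without humanized TCPOBOP replicates 3 and 4 together (adjusted p = 0.0285). Without humanized TCPOBOP replicates 1 and 2 it was 1.35 (adjusted p = 0.216).

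Cish, a rapidly induced STAT5 feedback gene whose short-lived transcript follows recent pulses (NM_009895; chromosome 9, 107296659 to 107302784), varied more within groups than between them. It had 11.2, 13.5, 6.15 and 12.9 CPM in humanized TCPOBOP livers, against 2.70, 19.8, 8.55 and 7.31 CPM in humanized vehicle livers. It had 5.80, 31.9, 13.2 and 2.02 CPM in wild-type TCPOBOP livers, against 17.6, 38.4, 1.60 and 6.64 CPM in wild-type vehicle livers. The highest value of each group was that of replicate 2. The changes of 0.19 ± 0.80 in humanized and -0.27 ± 0.76 in wild-type liver did not pass (adjusted p = 0.937 and 0.880), and the wild-type one was 0.67 without wild-type vehicle replicate 2.

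Of the 11 tested inhibitors of the pathway, Socs2 was the 1 that fell in wild-type liver, none rose, and the median was -0.12. None passed in humanized liver, where 3 had an unadjusted p under 0.05. Socs7, a relative of Socs2, was the 1 gene of the list with an interaction that passed (0.89 ± 0.26, adjusted p = 0.0472), which missed the threshold in 18 of 27 alternatives. Under TCPOBOP, Socs3, which is induced by cytokines as well as by growth hormone, was higher in humanized than in wild-type liver, with 25.7, 14.8, 15.4 and 109 CPM in humanized TCPOBOP livers, against 6.90, 7.96, 9.92 and 5.68 CPM in wild-type TCPOBOP livers (2.44 ± 0.53, adjusted p = 0.00303). Under vehicle the phosphatase genes Ptpn11 (-0.77) and Ptpn1 (-0.57) were lower in humanized than in wild-type liver, each in 23 of 28 alternatives.

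Bcl6, a repressor that STAT5 holds down after each pulse (NM_001348026; chromosome 16, 23965050 to 23988866), had 39.0, 33.6, 47.9 and 23.2 CPM in humanized TCPOBOP livers, against 35.7, 15.95, 45.8 and 27.0 CPM in humanized vehicle livers. It had 22.1, 9.66, 15.2 and 22.1 CPM in wild-type TCPOBOP livers, against 24.4, 12.0, 68.8 and 54.0 CPM in wild-type vehicle livers. The change was 0.21 ± 0.43 in humanized (adjusted p = 0.856) and -1.21 ± 0.43 in wild-type liver (adjusted p = 0.0772). The wild-type change passed when wild-type vehicle replicate 2 was left out (-1.51, adjusted p = 0.00971) and in DESeq2 (adjusted p = 0.0390), and so did the interaction without that library (1.74, adjusted p = 0.0333, against 1.42 and 0.182 with it). Under TCPOBOP the strains did not overlap, yet the difference of 1.06 ± 0.43 had an adjusted p of 0.0816, against 0.0299 without wild-type vehicle replicate 2 and 0.0287 in a fit of only the groups compared.

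Bcl6 and Cish partly ran against each other within groups, read at the libraries with the highest and lowest Cish. In 3 of the 4 groups the library with the highest Cish had the lowest Bcl6, and in humanized TCPOBOP livers it had the second lowest. In humanized TCPOBOP and wild-type vehicle livers the library with the lowest Cish had the highest Bcl6. In humanized vehicle and wild-type TCPOBOP livers it had the second highest. These are orders of 4 libraries that share depth and scaling, given as a description.

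**Figure D3:**
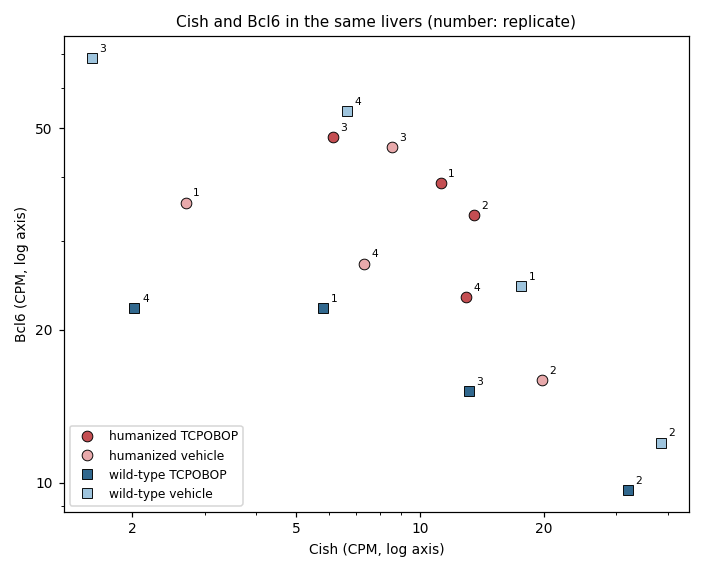
Cish (horizontal) is plotted against Bcl6 (vertical) in CPM on log axes, with 1 point per liver, the colour giving the group and the number the replicate. Replicates 2 of the wild-type groups have the highest Cish, 31.9 CPM with TCPOBOP and 38.4 CPM with vehicle, and the lowest Bcl6, 9.66 and 12.0 CPM.

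Hsd3b5, a male-specific hepatic steroid dehydrogenase (NM_008295; chromosome 3, 98618636 to 98645534), moved in opposite directions in the strains. It had 84.2, 194, 104 and 151 CPM in humanized TCPOBOP livers, against 3.84, 27.9, 17.1 and 6.89 CPM in humanized vehicle livers. It had 50.1, 14.9, 24.4 and 15.3 CPM in wild-type TCPOBOP livers, against 99.9, 36.9, 207 and 234 CPM in wild-type vehicle livers. The humanized groups did not overlap, and the wild-type groups overlapped only between TCPOBOP replicate 1 and vehicle replicate 2. It rose 9.61-fold in humanized (3.26 ± 0.62, adjusted p = 0.0108) and fell 5.52-fold in wild-type liver (-2.46 ± 0.59, adjusted p = 0.00838). The interaction of 5.73 ± 0.85 (adjusted p = 0.000594) was called in all 27 alternatives.

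Hsd3b5 also differed between the strains under vehicle. It was 10.4-fold lower in humanized than in wild-type vehicle livers (-3.38 ± 0.62, adjusted p = 0.00418) with no overlap, and 5.09-fold higher in humanized than in wild-type liver under TCPOBOP (adjusted p = 0.00773). The rise in humanized liver had an adjusted p of 0.0566 without humanized vehicle replicate 4, and every other alternative kept it under the threshold. Without humanized vehicle replicate 2, the highest of its group, the rise was 3.88, the vehicle difference -3.99 and the interaction 6.35. Of the 4 tested genes of the Hsd3b family, Hsd3b2, Hsd3b3 and Hsd3b5 fell in wild-type liver, and Hsd3b5 was the 1 that rose in humanized liver. Hsd3b2 changed by -2.32 ± 0.32 and Hsd3b3 by -1.66 ± 0.26 in wild-type liver (adjusted p = 8.24e-05 and 0.000246). Reads shared between these close relatives could blur the members.

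Elovl3, an elongase of very long fatty acids that is rhythmic and male-biased in mouse liver (NM_007703; chromosome 19, 46131897 to 46135694), did not pass in any comparison. It had 230.3, 342, 78.6 and 222 CPM in humanized TCPOBOP livers, against 115.5, 47.5, 319 and 73.4 CPM in humanized vehicle livers. It had 247, 198, 225 and 175 CPM in wild-type TCPOBOP livers, against 47.7, 6.38, 252 and 227 CPM in wild-type vehicle livers. The spread within groups exceeded the difference between them, except in wild-type TCPOBOP livers, which lay close together. The changes were 0.65 ± 0.73 in humanized (adjusted p = 0.694) and 0.66 ± 0.73 in wild-type liver (adjusted p = 0.648). Of the 5 tested Elovl genes, Elovl5 fell by 1.16 in wild-type liver (adjusted p = 0.0100), and Elovl1 and Elovl6 rose there, Elovl6 in 26 of 28 alternatives. Elovl5 changed by -1.19 in humanized liver (adjusted p = 0.0379), a call that held in 18 of 28 alternatives and was lost when any 1 humanized vehicle library was left out.

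Mup1, a major urinary protein that carries pheromones (NM_031188; chromosome 4, 60498012 to 60501960), was on average lowest in humanized vehicle livers. Reads could be counted for the wrong Mup gene, so the level and the changes of Mup1 are those of its row. It had 35.1, 54.0, 24.8 and 85.8 CPM in humanized TCPOBOP livers, against 0.207, 3.61, 4.20 and 0.939 CPM in humanized vehicle livers, where 2 to 31 counts lay behind the values. It had 31.4, 4.88, 28.4 and 23.7 CPM in wild-type TCPOBOP livers, against 13.5, 0.285, 53.2 and 54.0 CPM in wild-type vehicle livers. Wild-type vehicle replicate 2, with 3 counts, was as low as the humanized vehicle livers, and the wild-type groups overlapped. The rise was 4.53 ± 1.00 on the log2 scale in humanized liver (adjusted p = 0.0254), the wild-type change was -0.46 ± 0.80 (adjusted p = 0.798), and the interaction was 4.99 ± 1.27 (adjusted p = 0.0222).

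Under vehicle Mup1 was 14.1-fold lower in humanized than in wild-type liver (-3.81 ± 0.98, adjusted p = 0.0185). The calls on Mup1 leaned on few counts. The humanized rise had an adjusted p of 0.102 without humanized vehicle replicate 1 or replicate 4, 0.0613 without replicate 3 and 0.0565 without humanized TCPOBOP replicate 4. Without humanized vehicle replicates 1 and 4 in turn, the interaction had adjusted p of 0.0537 and 0.0578 and the vehicle difference 0.0648 and 0.0605.

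Other Mup genes differed in how far they followed Mup1. Of 20 tested members, 9 rose in humanized liver with a median log2 change of 3.51, and 3 rose in wild-type liver with a median of 0.58, and none fell in either strain. Their summed level was 8286 to 16370 CPM in humanized TCPOBOP and 2848 to 6171 CPM in humanized vehicle livers, without overlap. It was 4376 to 13430 CPM in wild-type TCPOBOP and 1150 to 12590 CPM in wild-type vehicle livers, lowest in replicate 2 of each group. Under vehicle 7 of the 20 were lower in humanized than in wild-type liver and none was higher. The interaction passed for 2 of the 20, Mup12 and Mup1. Single Mup genes are uncertain here, since reads from 1 could be counted for another.

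TCPOBOP raised 1.32% and lowered 1.19% of all genes in humanized liver, and raised 8.1% and lowered 4.99% in wild-type liver. Over 24 male-biased genes, it raised 3 and lowered none in humanized liver (median 0.76), and raised 2 and lowered 7 in wild-type liver (median -0.31). Those that fell in wild-type liver included Cyp7b1, an oxysterol hydroxylase (-1.59 ± 0.33, adjusted p = 0.00293), the fatty acid hydroxylase gene Cyp2u1 (-1.49 ± 0.34, adjusted p = 0.00557) and the peroxisomal CoA diphosphatase gene Nudt7 (-1.39 ± 0.30, adjusted p = 0.00442). Against these, Cyp4a12a rose by 1.11 and Ugt2b1, in 24 of 28 alternatives, by 1.44, both enzymes of lipid or drug metabolism. The uptake transporter gene Slco1a1 had 146, 162, 320 and 340 CPM in humanized TCPOBOP livers, against 38.3, 63.0, 91.9 and 46.5 CPM in humanized vehicle livers. It had 132.5, 59.2, 98.3 and 116 CPM in wild-type TCPOBOP livers, against 397, 46.4, 473 and 541 CPM in wild-type vehicle livers. It thus shared the order of Hsd3b5, and its interaction of 3.86 ± 0.73 passed (adjusted p = 0.00324), while its rise in humanized liver (2.01 ± 0.52, adjusted p = 0.0480) held in 10 of 28 alternatives and its fall in wild-type liver in 22 of 28.

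In the interaction 7 of the 24 male-biased genes were higher and none lower, with a median of 1.16. Under vehicle 8 were lower and 1, Cyp4a12b, was higher in humanized than in wild-type liver, with a median of -0.66. Under TCPOBOP 7 were higher and 1, Ugt2b1, was lower, with a median of 0.56. Of these, Ugt2b1 held its call in 12 of 28 alternatives and Cyp2u1, among the higher, in 11 of 28. The list holds Hsd3b5, Elovl3 and Mup1, so it overlaps the 10 genes.

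Of 15 tested female-biased genes, 2 fell and none rose in humanized liver (median -0.78), and 4 rose and 5 fell in wild-type liver (median -0.54). The 4 that rose in wild-type liver were Sult3a1, Cyp3a16, Cyp3a44 and Prom1. The 5 that fell were Acot3, Rtn4, Cyp2c40, Fmo2, in 22 of 28 alternatives, and Cux2. Under TCPOBOP 1 was higher and 6 were lower in humanized than in wild-type liver, with a median of -0.68. Those 6 include Sult3a1, Cyp3a16 and Cyp3a44. Under vehicle 1 was lower and none higher, and in the interaction 1 was higher and 3 were lower. Sult3a1, a sulfotransferase gene, was at 4.14 to 9.73 CPM in wild-type TCPOBOP livers, at most 0.0939 CPM in wild-type vehicle livers, and listed at 0 in all 8 humanized livers. Cyp3a16 and Cyp3a44, enzymes of the mouse Cyp3a family with close relatives, were at most 0.140 and 0 CPM in humanized livers. By its name the line is humanized for CYP3A. An effect of this genotype on the mouse Cyp3a genes cannot be told apart here from sex-biased regulation. Sult3a1, Cyp3a16 and Cyp3a44 passed the filter on low counts through wild-type liver. At these levels they could show no change in humanized liver, yet they stand in its count of 15 and in its median.

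Cux2, a female-specific repressor of male-biased genes, was called lower in wild-type liver (-3.26 ± 1.06, adjusted p = 0.0495), but the call held in 7 of 25 alternatives. It had 0, 0.837, 0.205 and 0.474 CPM in humanized TCPOBOP livers, against 5.39, 1.40, 0.841 and 9.50 CPM in humanized vehicle livers. It had 0.657, 0.582, 0.561 and 0.626 CPM in wild-type TCPOBOP livers, against 0.734, 21.7, 0.188 and 0.546 CPM in wild-type vehicle livers. Wild-type vehicle replicate 2 held nearly all of the Cux2 signal of its group, and without it the change reversed in sign. The same library had the highest level of the female-biased genes Cyp2a4 (92.1 CPM) and A1bg (17.4 CPM) and the lowest of Elovl3 (6.38 CPM) among all 16. Humanized vehicle replicates 1 and 4, the next highest in Cux2, were the lowest of all 16 in Hsd3b5.

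**Figure D4:**
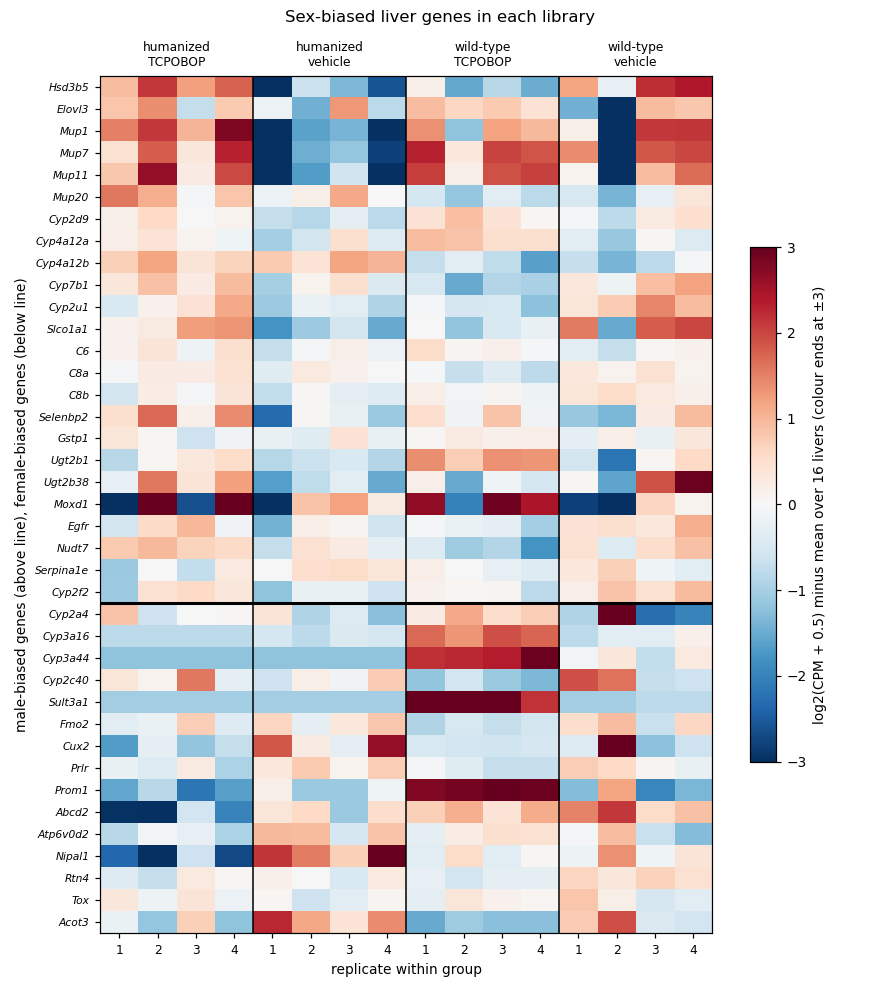
Each row is a sex-biased gene that passed the filter, 24 male-biased above the line and 15 female-biased below it, and each column a library, grouped as humanized TCPOBOP, humanized vehicle, wild-type TCPOBOP and wild-type vehicle. Colour is log2(CPM + 0.5) minus the mean over the 16 livers, ending at ±3. Mup1, Mup7 and Mup11 are blue in all 4 humanized vehicle livers and in wild-type vehicle replicate 2, which is also red for Cux2 and Cyp2a4. Mup20 is not blue throughout these livers.

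Of 14 transcription factors downstream of growth hormone, none was called in humanized liver, where 4 had an unadjusted p under 0.05. Cux2 was the 1 called in wild-type liver, where 4.99% of all genes fell. The hepatocyte factor gene Cebpa was higher in the interaction (1.44 ± 0.39, adjusted p = 0.0291, held in 20 of 27 alternatives). Cebpa and Onecut2 were higher in humanized than in wild-type liver under TCPOBOP (1.04 and 1.42), where 11.8% of all genes were higher. Hnf4a, the factor that works beside STAT5B on sex-biased genes, was at 448.6 to 1234 CPM in humanized TCPOBOP livers and 832.7 to 1018 CPM in wild-type TCPOBOP livers, and passed in no comparison.

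Genes that respond to fasting, a state known to blunt hepatic growth hormone action, were read beside the members because feeding is not given. Of 9 tested, 3 fell in wild-type liver and none rose: Klb, a co-receptor for FGF21 (-1.91 ± 0.37, adjusted p = 0.00168), Ppara (-1.21 ± 0.30, adjusted p = 0.0111) and Angptl4 (-1.16 ± 0.34, adjusted p = 0.0299). In humanized liver Lepr was called lower (-1.65 ± 0.40, adjusted p = 0.0399) and none rose. The call on Lepr held in 13 of 27 alternatives and that on Angptl4 in 22 of 28. Fgf21, the fasting hormone, did not pass the filter and was at most 6.31 CPM, in wild-type TCPOBOP replicate 4. The part of feeding in the results was not tested. The interaction passed for Ppara (2.32 ± 0.43) and Klb (2.74 ± 0.52).

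Clock genes differed between the groups as well, and Elovl3 and several growth hormone targets are rhythmic. Dbp, a clock output factor, was at 93.2, 20.1, 106 and 79.7 CPM in humanized TCPOBOP livers, against 4.35, 6.29, 3.92 and 3.97 CPM in humanized vehicle livers. It was at 51.0, 63.9, 34.6 and 35.9 CPM in wild-type TCPOBOP livers, against 81.3, 44.4, 11.6 and 75.2 CPM in wild-type vehicle livers. Of 17 tested clock genes, 7 rose and 1 fell in humanized liver and 1 fell in wild-type liver, Cry1 in both. Under vehicle 3 of the 17 were higher and 6 lower in humanized than in wild-type liver, where 7.11% of all genes were higher and 8.95% lower. Under TCPOBOP 4 were higher and none lower, and in the interaction 5 were higher and none lower. The humanized vehicle livers were thus lowest on average in Dbp, Hsd3b5 and Mup1, and the part of the clock genes in the results was not tested.

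Across the 16 libraries the genes closest in pattern to 4 of the members were found by Pearson correlation of log2 CPM, as a description over libraries that share scaling. Igf1 was closest to Rnase4 (0.96), Cnppd1 (0.95) and Nipsnap1 (0.95). Rnase4 averaged 1774 and 2212 CPM in humanized TCPOBOP and humanized vehicle livers, against 416 and 1416 CPM in wild-type TCPOBOP and wild-type vehicle livers. Socs2 was closest to Syt3 (0.91), Ggact (0.87) and Pck1 (0.86). Hsd3b5 was closest to Lonp2 (0.96), Sdr9c7 (0.94) and Epb41l4b (0.92). Mup1 was closest to Mup12 (0.98), Mup14 (0.97) and Tax1bp1 (0.96).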

How the data were processed

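RNA of 16 snap-frozen livers was isolated with Trizol, enriched with poly(dT) beads and made into libraries with a NEBNext kit, per the labels' protocols. The authors deposited raw counts per RefSeq transcript row; STAR, DESeq2 and mm10 are named in the submitters' processing notes, with no role or version. No column was left unmapped (0 unused). Of counts of 20 or more, 74.9% were even, so 1 fragment may have been counted as 2, which would make counting error larger than the totals imply. Library totals were 11827994 to 37998473 counts. Whether replicates are separate animals is not stated, so p-values measure the spread between these libraries.

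For each gene the row with the highest mean count was kept. Genes that passed edgeR's filter on low counts (12913) were scaled by TMM and fitted over all 4 groups with edgeR's quasi-likelihood test (edgeR 4.0.16, limma 3.58.1, R 4.3.3) and Benjamini-Hochberg adjustment over all of them at 0.05; fold changes are on the log2 scale. Scripts were tested on simulated counts. DESeq2 1.42.0, other scalings, filters, a replicate block and leaving out libraries were alternatives. Leaving out pairs of humanized TCPOBOP libraries was chosen after seeing the data. The members and lists were chosen with earlier results of these data known. Named beside the members were, per list and comparison, the called genes with the smallest p, up to 4. Cyp4a12a, Ugt2b1, Jak2, Hnf4a, Fgf21, Cyp2a4, A1bg, Acot3, Rtn4, Cyp2c40 and Fmo2 were named after their values were seen. So were the other called genes of a list with 5 or fewer calls.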

Additional observations from a re-analysis of the deposited data

Results flagged for a closer look

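Wild-type vehicle replicate 2 stood apart from the other 3 libraries of its group in 3 of the 10 genes, by the gap to its nearest neighbour as a share of the group's range. The share was 0.887 for Ghr, where it had 307 CPM, 0.908 for Igf1, where it had 270.0 CPM, and 0.839 for Igfals, where it was highest at 223 CPM. All 3 shares were past Dixon's 95% limit for 4 libraries; 40 gene and group pairs were looked at, and chance passes about 1 in 20 of them.

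The effect of TCPOBOP differed between humanized and wild-type liver, by the interaction term, in 5 genes. The difference was 1.31 for Ghr, 0.93 for Stat5b, 1.95 for Igfals, 5.73 for Hsd3b5 and 4.99 for Mup1 on the log2 scale. Those of Igfals and Hsd3b5 were called in all 27 alternatives, and those of Ghr, Stat5b and Mup1 were not.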

How the results depend on the processing

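The falls of Stat5b, Igf1, Igfals, Socs2 and Hsd3b5 in wild-type liver and the interactions of Igfals and Hsd3b5 kept their call in every alternative. Members called ranged, with 1 library left out, from 0 to 2 in humanized liver (0 without humanized vehicle replicate 4, and 1 without humanized vehicle replicate 1 or 3 or humanized TCPOBOP replicate 4), 5 to 7 in wild-type liver, 3 to 7 in the interaction (3 when replicate 1 or 4 of humanized vehicle, 4 of wild-type TCPOBOP or 3 of wild-type vehicle was dropped), 1 to 3 between strains under vehicle (1 without humanized vehicle replicate 1 or 4) and 4 to 7 under TCPOBOP. With at least 10 counts in all libraries, which drops Mup1, 1 member was called in humanized liver and 1 between strains under vehicle; with library totals only, 3 in the interaction. Library totals only moved the median of all genes to -0.11 in humanized liver, 0.07 in wild-type liver, -0.22 in the interaction, 0.04 between strains under vehicle and -0.17 under TCPOBOP.

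Over all genes tested, leaving out 1 library gave for TCPOBOP against vehicle in humanized liver 74 to 960 calls (325 with all libraries), in wild-type liver 1068 to 2190 (1691 with all), for the interaction 575 to 1782 (963 with all), between strains under vehicle 621 to 3425 (2074 with all) and under TCPOBOP 1963 to 4163 (3175 with all). Libraries that moved a count by over 1.5 times were, in humanized liver, humanized TCPOBOP replicates 1 (960), 3 (157) and 4 (160), humanized vehicle 1 (86), 3 (109) and 4 (74), wild-type TCPOBOP 1 (216), 3 (173) and 4 (196) and wild-type vehicle 2 (685); in wild-type liver, wild-type TCPOBOP 4 (1068); in the interaction, humanized TCPOBOP 1 (1782), humanized vehicle 4 (630), wild-type TCPOBOP 3 (618) and 4 (575) and wild-type vehicle 2 (1705); between strains under vehicle, humanized TCPOBOP 1 (3425), humanized vehicle 1 (621), 3 (770) and 4 (794) and wild-type vehicle 1 (1291); and under TCPOBOP, wild-type TCPOBOP 4 (1963). DESeq2 gave 770 in humanized liver and 1471 in the interaction. In humanized liver the count was 207 with the stricter filter and 182 with only the groups compared. Without humanized TCPOBOP replicates 1 and 2 the counts were 2823 in humanized liver, 2573 in wild-type liver, 2876 in the interaction and 4115 between strains under vehicle; without replicates 3 and 4 they were 3488 under vehicle and 5377 under TCPOBOP. The cause was not tested.

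Of the 10 genes, values that turned sign had passed in no fit; of the listed genes called, Cux2 in wild-type liver was the 1 that turned sign. Leaving out 1 library, Cish ranged from -0.12 to 0.85 in humanized liver, -1.19 to 0.67 in wild-type liver, -0.46 to 1.39 in the interaction, -1.41 to 0.19 between strains under vehicle and -0.64 to 0.64 under TCPOBOP. Elovl3 ranged from -0.52 to 0.80 in the interaction, -0.76 to 0.56 under vehicle and -0.25 to 0.33 under TCPOBOP, and Bcl6 from -0.67 to 0.04 under vehicle. Stat5b in humanized liver was -0.02 with library totals only. The interaction of Elovl3 was 0.05 in DESeq2 and with RLE size factors, 0.03 thinned and 0.38 without humanized TCPOBOP replicates 3 and 4. Between strains under TCPOBOP Elovl3 was -0.16 with library totals only and -0.48 without humanized TCPOBOP replicates 1 and 2.

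The replicate numbers were not taken as pairs: correlations of same-numbered libraries' deviations ran from -0.24 to 0.58, 6 of 24 were over 0.1, the wild-type pairs stood at 0.0998, 0.58, 0.22 and 0.18, and 5 libraries correlated best with their own number. With the replicate block, 2 members were called in humanized liver, 6 in wild-type liver, 4 in the interaction, 2 between strains under vehicle and 7 under TCPOBOP; over all genes 209, 1692, 865, 2022 and 3126 were. With the block the Ghr interaction was 1.26 (adjusted p = 0.0510), the Bcl6 difference between strains under TCPOBOP was 1.12 (adjusted p = 0.0328), and the calls on Elovl5 in humanized and Angptl4 in wild-type liver were lost. With it the Elovl3 interaction was 0.09 and Cish between strains under TCPOBOP 0.15. The fit with only the groups compared cannot give an interaction.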
